A study of Aegilops tauschii x Triticum turgidum and Aegilops tauschii and Triticum turgidum subsp. durum with 18 samples.

Results

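S1_54 is the first selfed generation of a synthetic wheat made by crossing Triticum turgidum cv. Joyau, a tetraploid wheat, with Aegilops tauschii ssp. tauschii accession 54, a diploid goat grass. Its 2 arrays (replicates 5 and 7) were set against the 2 arrays of Joyau (replicates 1 and 2) and against the 2 arrays of accession 54, called Ae54 here (replicates 1 and 2). These 6 arrays were chosen by their labels from the 18 arrays of the series, and S0_54, the generation before selfing of the same cross, is shown beside them (2 arrays, replicates 3 and 4). All were Affymetrix wheat arrays hybridised with RNA of whole plants of 40 days that had received no treatment. The labels call the replicates biological and do not give the number of plants behind an RNA sample. The word hexaploid stands in the genotype label of each sample, parents included, and was not used for grouping. One label conflict touches a parent: for Ae54 replicate 1 the hybrid is entered as organism, and its extract label names an RNA mix. That array differed from Ae54 replicate 2 by a root mean square of 0.570 on the log2 scale, against at least 1.63 between either Ae54 array and the mix arrays of cross 54. The RNA amount was 40 µg for the S1_54 and Joyau samples and 20 µg for Ae54 replicate 2.

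Bread wheat is an allohexaploid that arose from a tetraploid wheat and the goat grass Ae. tauschii, and synthetic wheats repeat that cross. In such a plant most genes are present as homoeologues, the related copies that come from each parent. The summed level of a gene can lie between the levels of the parents, match one of them, or lie outside their range. An array probe set may read one homoeologue, or several at once, and the files do not say which. The array was designed on wheat sequence, and how well its probes match the Ae. tauschii transcripts was not measured. In whole plants, fewer cells of a type and less RNA per cell cannot be told apart. The tissue markers chosen for leaf, grain, anther and root match no gene symbol of the probe table, so the tissue was not checked against markers.

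The values are log2 expression values made by the authors with GCRMA. A probe set was tested if it reached 5 on at least 2 of the 18 arrays, which 18189 of 61179 probe sets did. Depth has no meaning for arrays, and their number limits the precision. The median standard error of a difference was 0.29 log2 units. A probe set passed at a Benjamini-Hochberg adjusted p under 0.05 by limma's moderated test. The 2 S1_54 arrays differed from each other by a root mean square of 0.537, from Joyau arrays by 1.35 to 1.54 and from Ae54 arrays by 1.76 to 1.91. Between the parents it was 2.25 to 2.28. Some control probe sets were higher in S1_54 than in its parents. The 18S rRNA control read 8.56 and 7.90 in S1_54, 5.50 and 4.14 in S0_54, 6.09 and 7.48 in Joyau and 6.84 and 6.40 in Ae54. The mean of the 36 poly-A spike probe sets was 7.20 and 6.52 in S1_54, 6.45 and 5.75 in S0_54, 5.56 and 4.99 in Joyau and 5.48 and 4.74 in Ae54. Both controls were higher in S1_54 than in either parent and in S0_54, without overlap. Among the other arrays of the series they reached 8.15 and 6.96, above S1_54 replicate 7. Their part in the results below was not tested.

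Against Joyau, 7007 probe sets passed (38.5%), of which 2897 were higher in S1_54 (15.9%) and 4110 lower (22.6%). Against Ae54, 9815 passed (54.0%), with 4501 higher in S1_54 (24.7%) and 5314 lower (29.2%). The parents themselves differed at 10170 probe sets (55.9%), 4753 higher in Ae54 (26.1%) and 5417 lower in Ae54 (29.8%). These comparisons share arrays with each other. The median absolute difference was 0.63 log2 units between S1_54 and Joyau, 0.87 between S1_54 and Ae54, and 0.97 between the parents. At an absolute difference of 1 or more, 2315 probe sets were higher in S1_54 than in Joyau (12.7%) and 2934 lower (16.1%), and 3793 were higher than in Ae54 (20.9%) and 3955 lower (21.7%). At 2 or more, 1217 were higher than in Joyau (6.69%) and 703 lower (3.86%), and 2365 were higher than in Ae54 (13.0%) and 1114 lower (6.12%). At 3 or more, 595 were higher than in Joyau (3.27%) and 170 lower (0.935%), and 1471 were higher than in Ae54 (8.09%) and 259 lower (1.42%). The larger differences were thus mostly rises. Over all tested probe sets the median was -0.15 for S1_54 minus Joyau and -0.12 for S1_54 minus Ae54. When each array was centred on its median, the first became 0.01 and the count against Joyau became 3503 higher and 3431 lower. With quantile normalisation the median was -0.06 and the count 3274 higher and 3756 lower, so the excess of lower calls against Joyau was smaller there and absent with centring. The excess against Ae54 turned without S1_54 replicate 5 (3812 higher, 3758 lower) and without Ae54 replicate 1 (4108 higher, 3910 lower). Of the 716 tested probe sets with a gene symbol, 38.5% passed against Joyau and 49.7% against Ae54.

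**Figure D1:**
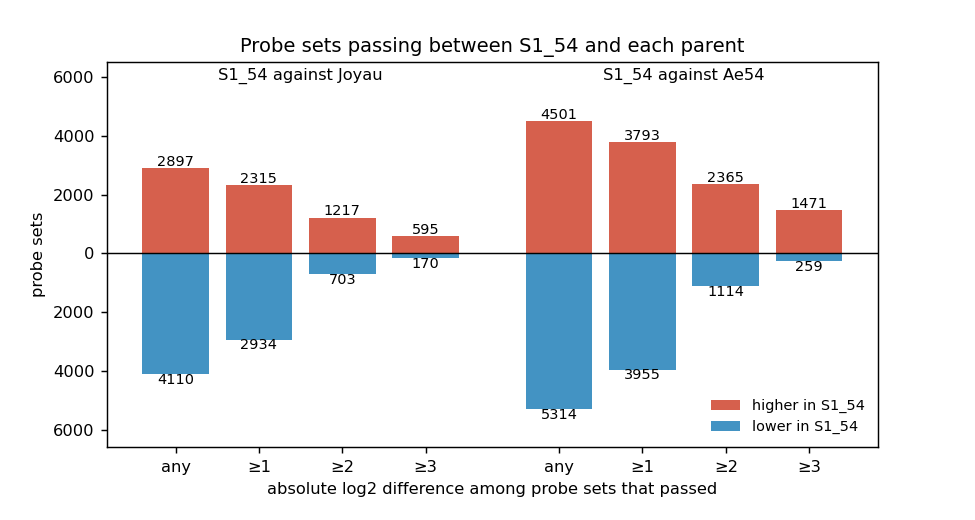
Number of probe sets that passed between S1_54 and Joyau (left bars) or Ae54 (right bars), higher in S1_54 above the line and lower in S1_54 below it, for all that passed and for absolute log2 differences of 1, 2 and 3 or more. Lower calls are more numerous among all that passed (4110 against 2897 for Joyau), and higher calls among differences of 3 or more (595 against 170).

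Of the 12 named genes with the largest rise over Joyau, 11 were higher in Ae54 than in Joyau by 1 or more, beside 21.0% of all tested probe sets. Of the 12, 2 also passed above Ae54, beside 24.7% of all. The genes were chosen on a difference that shares the Joyau arrays with the parental difference, so nothing is read from these counts, and the same holds for the next groups of genes. LOC543254 read 10.96 and 11.23 in S1_54, against 3.79 and 3.57 in Joyau and 12.58 and 12.62 in Ae54. Its level in S1_54 stood far above Joyau and passed below Ae54, with differences of 7.41 (SE 0.25, adjusted p = 1.42e-08, limma) and -1.51 (SE 0.25, adjusted p = 0.000537). LOC100037561 read 14.53 and 14.44 in S1_54, 9.17 and 9.14 in Joyau and 14.24 and 14.48 in Ae54. Here S1_54 overlapped Ae54, and the difference from it was 0.12 (SE 0.20, adjusted p = 0.637). LOC542997 read 8.94 and 10.05 in S1_54, against 3.10 and 2.87 in Joyau and 12.16 and 12.27 in Ae54, which places it between the parents. The other rises in this group lay between 4.78 and 7.56 log2 units over Joyau.

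Of the 12 named genes with the largest rise over Ae54, 10 were higher in Joyau than in Ae54 by 1 or more, beside 25.2% of all tested probe sets. Of the 12, 3 passed against Joyau, beside 38.5% of all. LOC100037539 read 13.41 and 13.42 in S1_54, 13.27 and 13.34 in Joyau and 5.44 and 5.66 in Ae54. Its level differed from Ae54 by 7.86 (SE 0.18, adjusted p = 7.54e-10, limma) and from Joyau by 0.11 (SE 0.18, adjusted p = 0.668). LOC542871 read 12.02 and 12.58 in S1_54, against 12.58 and 12.57 in Joyau and 3.98 and 4.82 in Ae54. LOC606340 (probe set Ta.27765.3.S1_at) read 9.83 and 10.02 in S1_54, against 11.10 and 10.97 in Joyau and 2.83 and 2.80 in Ae54, so that it passed below Joyau (-1.11) and above Ae54 (7.11). Its probe set Ta.27765.3.S1_x_at was also low in Ae54 (4.68 and 4.90). On Ta.27765.4.S1_x_at and Ta.27765.6.S1_x_at Ae54 averaged 10.75 and 11.29, and S1_54 passed below it (-0.55 and -1.09). Ta.27765.1.S1_x_at, Ta.27765.2.S1_x_at and Ta.27765.5.S1_x_at averaged 9.25, 10.69 and 9.11 in Ae54, and S1_54 did not pass against it there.

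Among the named genes, the largest falls were smaller than the largest rises. Of the 12 named genes with the largest fall against Joyau, 2 passed against Ae54, beside 54.0% of all tested probe sets. LOC543368 read 5.29 and 4.99 in S1_54, against 9.48 and 9.54 in Joyau and 4.79 and 4.63 in Ae54. LOC543416 read 3.58 and 3.69 in S1_54, against 7.93 and 7.79 in Joyau and 3.59 and 3.59 in Ae54. Both were high in Joyau and near the level of Ae54 in S1_54, with differences from Joyau of -4.37 (SE 0.20, adjusted p = 9.44e-08, limma) and -4.22 (SE 0.16, adjusted p = 2.95e-08). The fall of LOC543416 ends near the floor of GCRMA values, where differences are understated. Among the 12 largest falls against Ae54, LOC100037599 read 2.57 and 2.95 in S1_54, 1.79 and 1.89 in Joyau and 8.95 and 8.67 in Ae54. LOC100037518 read 4.14 and 5.30 in S1_54, 2.29 and 2.34 in Joyau and 10.42 and 10.16 in Ae54, between the parents and far below Ae54 (-5.57, SE 0.36, adjusted p = 5.78e-07).

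The parental difference was then used to place S1_54. The parental classes were cut from the same Joyau and Ae54 arrays that S1_54 was set against, so the counts describe these arrays and carry no test of their own. Of 3825 probe sets higher in Ae54 than in Joyau by 1 or more (21.0% of those tested), S1_54 passed against Ae54 only at 1761 (46%) and against Joyau only at 608 (15.9%). It passed against both and lay between the parents at 1125 (29.4%). Of 4582 probe sets higher in Joyau than in Ae54 by 1 or more (25.2%), S1_54 passed against Ae54 only at 1794 (39.2%) and against Joyau only at 1000 (21.8%), and lay between at 1193 (26%). Thus in both classes the most frequent outcome was a level that passed against Ae54 and did not pass against Joyau. Not passing does not show that the levels were equal. S1_54 rose above both parents at 59 probe sets of the first class (1.54%) and at 182 of the second (3.97%), beside 4.91% of all tested. It fell below both at 69 (1.8%) and 84 (1.83%), beside 7.19% of all tested.

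**Figure D2:**
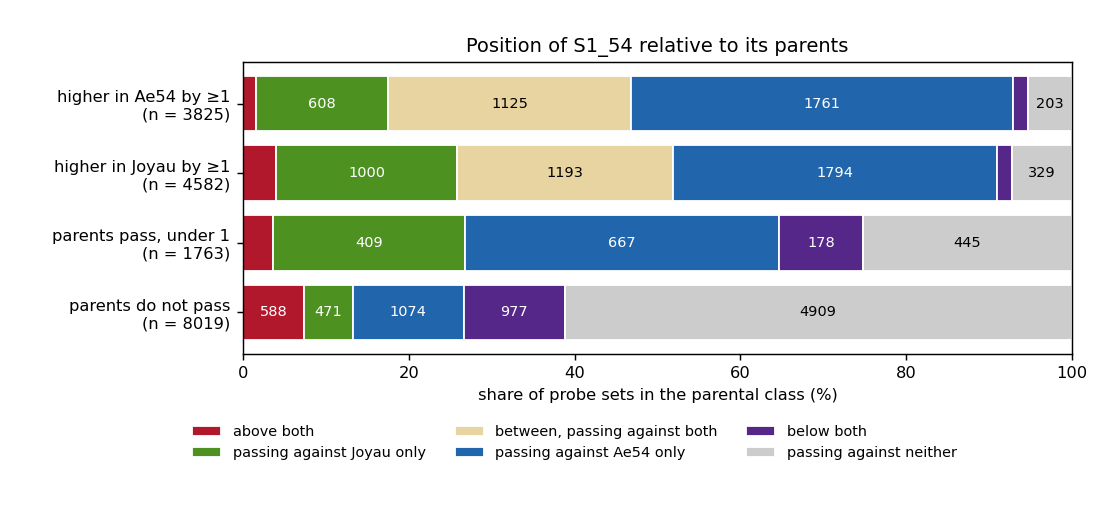
Share of probe sets in each parental class (rows) by the outcome of the S1_54 comparisons (colours), with counts in the wider segments. In both upper rows the widest segment is the one passing against Ae54 only (1761 of 3825 and 1794 of 4582).

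The weight of Ae54 was the median, over probe sets, of the distance of an array from Joyau on the linear scale divided by the distance of Ae54 from Joyau, so that 0 is Joyau and 1 is Ae54. It was 0.349 and 0.353 on the S1_54 arrays over 8407 probe sets with a parental difference of 1 or more, and 0.363 and 0.381 on the S0_54 arrays. The value depended on which parent was higher. Where Ae54 was higher it was 0.132 and 0.193 in S1_54 and 0.279 and 0.288 in S0_54. Where Joyau was higher it was 0.605 and 0.566 in S1_54 and 0.483 and 0.492 in S0_54. On the log2 scale the median S1_54 difference in that class was -0.88 from Joyau and 1.56 from Ae54. Which parent S1_54 was nearer to there thus depended on the scale. In both directions the deposited values put S1_54 nearer than S0_54 to the parent with the lower level, without overlap. S1_54 was also lower than S0_54 over all tested probe sets, with a median of -0.22. With each array centred on its median, a setting added after seeing the data, this median became -0.03. The weight where Joyau was higher was then 0.522 and 0.521 in S1_54 and 0.490 and 0.524 in S0_54, which overlap. Where Ae54 was higher it was 0.173 and 0.203 in S1_54 and 0.243 and 0.238 in S0_54, still without overlap and closer together. With quantile normalisation, also added after seeing the data, the weight where Joyau was higher was 0.546 and 0.535 in S1_54 and 0.484 and 0.522 in S0_54, without overlap. The difference between the generations where Joyau was higher thus depended on which scaling was used. The 18S rRNA control, given above, also differed between the generations, and its part was not tested. In the deposited values the difference was present in every class of parental difference. Among probe sets higher in Ae54 by 4 or more, the weight was 0.196 and 0.246 in S1_54 and 0.317 and 0.305 in S0_54. Among those higher in Joyau by 4 or more, it was 0.523 and 0.472 in S1_54 and 0.407 and 0.439 in S0_54. The overall weight moved to 0.313 when arrays were centred or quantile normalised, and to 0.305 without Joyau replicate 1 and 0.416 without Joyau replicate 2.

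**Figure D3:**
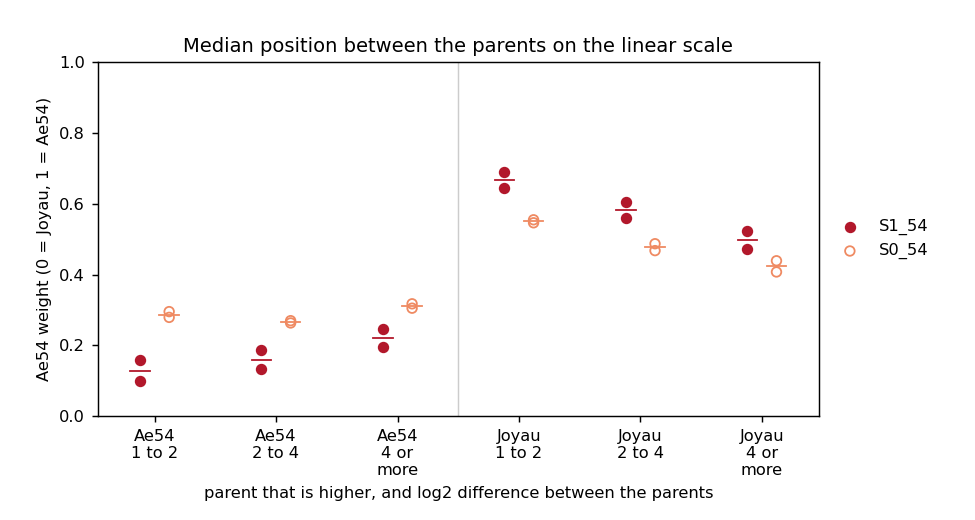
Ae54 weight of each S1_54 and S0_54 array (points; short lines are means of 2 arrays) by the parent that is higher and the log2 difference between the parents. S1_54 lies below S0_54 in the Ae54 classes (0.132 and 0.193 against 0.279 and 0.288 over all of them) and above it in the Joyau classes (0.605 and 0.566 against 0.483 and 0.492), where the groups overlapped once arrays were centred.

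Many probe sets left the parental range altogether. S1_54 was above both parents at 893 probe sets (4.91%), 668 of them by 1 or more (3.67%) and 398 by 2 or more. It was below both at 1308 (7.19%), 646 of them by 1 or more (3.55%) and 50 by 2 or more. With arrays centred on their medians the counts were 1049 above and 1096 below, so the excess below both parents was mostly absent there. With quantile normalisation they were 951 above and 1317 below, so the excess remained. The parents did not pass against each other at 588 of the 893 (65.8%) and at 977 of the 1308 (74.7%). The median of the smaller of both differences was 1.79 log2 units above and -0.996 below. The mean of S0_54 lay on the same side of both parents at 513 of the 893 (57.4%) and at 1072 of the 1308 (82%). The same parental arrays entered the choice of these probe sets and the placing of S0_54. The share over all tested probe sets was not counted, so nothing is read from these shares. S1_54 and S0_54 differed at 1662 of all tested probe sets (9.14%). S1_54 passed as higher than S0_54 at 411 of the 893, against 738 of all tested probe sets (4.06%), and as lower at 308 of the 1308, against 924 of all (5.08%). These counts share the S1_54 arrays with the choice of the probe sets. Without S1_54 replicate 5 the counts became 527 above and 616 below, and without Joyau replicate 1 they became 593 and 752.

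Some probe sets reached 5, the level of the filter, in S1_54 and not in the parents. On both S1_54 arrays 276 probe sets reached 5 while all 4 parental arrays were under 5, and 242 of these passed above both parents. The S1_54 arrays alone were enough for these 276 to meet the filter. They were also picked on the compared arrays, so nothing is read from the 242. Both S0_54 arrays reached 5 at 93 of the 276 and stayed under it at 149. In the other direction 306 of the 18189 were under 5 on both S1_54 arrays and at 5 or more on all 4 parental arrays. Of these, 198 passed below both parents, beside 7.19% of all tested probe sets. The 306 entered the test through the parental arrays and were also picked on the compared arrays. Nothing is thus read from the 198 either, and the directions are not compared. Both S0_54 arrays kept 191 of the 306 at 5 or more. A probe set at that level in Joyau and under it in Ae54 was at that level in S1_54 in 1605 of 2793 cases (57.5%). A probe set at that level in Ae54 and under it in Joyau was so in 776 of 2099 cases (37%).

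Among the named genes above both parents, LOC542781 was far from both and from S0_54. It read 12.49 and 12.87 in S1_54, 9.98 and 10.84 in S0_54, 6.20 and 6.21 in Joyau and 9.05 and 9.50 in Ae54. S1_54 stood above Joyau by 6.48 (SE 0.31, adjusted p = 1.13e-07, limma) and above Ae54 by 3.40 (SE 0.31, adjusted p = 7.56e-06). LOC780692 read 8.46 and 8.46 in S1_54, 7.72 and 7.81 in S0_54, 5.12 and 5.25 in Joyau and 6.17 and 6.08 in Ae54. LOC543333 (probe set Ta.30768.3.S1_x_at) read 10.47 and 10.50 in S1_54, 10.39 and 10.76 in S0_54, 7.96 and 7.87 in Joyau and 7.70 and 7.37 in Ae54. For LOC543333 the rise over the parents was already present in S0_54, where the difference between the generations was -0.09 (adjusted p = 0.901).

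LOC543407 read 13.37 and 13.24 in S1_54, against 11.40 and 11.29 in Joyau and 10.47 and 10.24 in Ae54, with a second probe set above both parents too (1.27 and 1.02 log2 units). LOC778400 read 6.84 and 7.24 in S1_54, against 5.20 and 4.84 in Joyau and 3.99 and 4.50 in Ae54, and its second probe set stood above Joyau by 4.18 and above Ae54 by 1.92. LOC606310 read 6.90 and 7.86 in S1_54, 8.57 and 8.42 in S0_54, 5.70 and 5.24 in Joyau and 4.30 and 3.88 in Ae54. That each S1_54 array lay above all parental arrays was a condition for naming these genes and is not a result.

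Of these 12 genes, the one with the largest rise over both parents also had the largest standard error. LOC543233 read 9.23 and 11.30 in S1_54, 2.73 and 12.03 in S0_54, 3.41 and 2.99 in Joyau and 2.89 and 2.85 in Ae54. One S0_54 array was as low as the parents and the other as high as S1_54. The differences of 7.07 from Joyau (SE 2.51, adjusted p = 0.0465, limma) and 7.39 from Ae54 (SE 2.51, adjusted p = 0.0287) lost the call in 8 and 6 of 15 alternative settings. LOC778394 read 6.61 and 6.68 in S1_54, 6.08 and 8.21 in S0_54, 3.00 and 3.15 in Joyau and 3.13 and 3.29 in Ae54. LOC542941, LOC100125679, LOC606363 and LOC100049032 also passed above both parents, with the smaller difference between 1.64 and 3.20. The S1_54 arrays read 4.96 and 7.13 in LOC542941 and 5.49 and 3.97 in LOC100049032. The calls of LOC542941 against Joyau and Ae54 were lost in 4 and 5 of 14 alternative settings. Those of LOC100049032 were lost in 4 and 4 of 14, of LOC606363 in 3 and 1 of 14, and of LOC100125679 in 2 and 1 of 13.

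**Figure D4:**
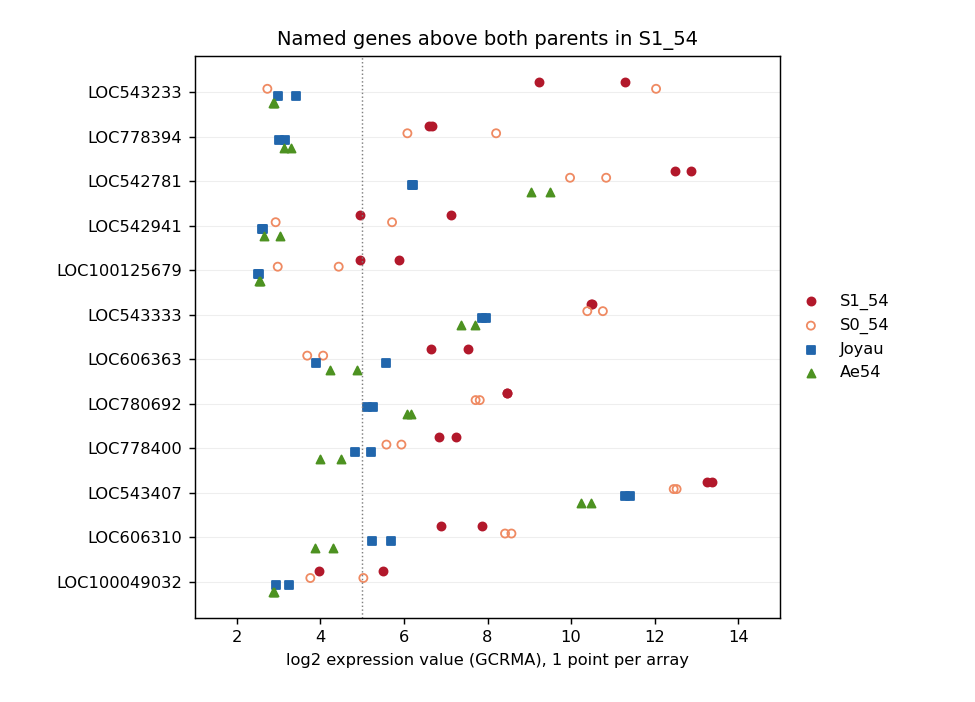
Log2 values on each array (horizontal axis) of the 12 named genes with S1_54 above both parents: filled circles are S1_54, open circles S0_54, squares Joyau and triangles Ae54, and the dotted line marks 5. In LOC542781 the S1_54 points (12.49 and 12.87) stand right of all others, and in LOC543233 the S0_54 points are split (2.73 and 12.03).

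CAT1, a catalase, which removes hydrogen peroxide, fell below both parents. It read 9.91 and 10.54 in S1_54, 10.66 and 11.10 in S0_54, 12.87 and 12.92 in Joyau and 11.999 and 11.85 in Ae54. The difference was -2.67 from Joyau (SE 0.24, adjusted p = 1.47e-05, limma) and -1.70 from Ae54 (SE 0.24, adjusted p = 0.000196), and both calls held in all 15 alternative settings. GAPN, the non-phosphorylating glyceraldehyde-3-phosphate dehydrogenase of the cytosol, read 8.17 and 8.62 in S1_54, 8.44 and 8.87 in S0_54, 10.15 and 10.22 in Joyau and 9.41 and 9.57 in Ae54. Its difference was -1.79 from Joyau (SE 0.31, adjusted p = 0.00111) and -1.09 from Ae54 (SE 0.31, adjusted p = 0.0115). The second of these calls was lost without S1_54 replicate 5 and without Ae54 replicate 2. In both genes S0_54 was below both parents as well, and S1_54 did not pass against S0_54.

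petC, the Rieske iron-sulfur protein of the photosynthetic cytochrome b6f complex, read 12.96 and 13.40 in S1_54, 13.58 and 13.69 in S0_54, 13.72 and 13.79 in Joyau and 14.18 and 13.95 in Ae54. It passed below Ae54 (-0.89, SE 0.21, adjusted p = 0.00416, limma) and below Joyau (-0.58, SE 0.21, adjusted p = 0.0479), and the call against Joyau was lost in 8 of 15 alternative settings. SAHH, S-adenosylhomocysteine hydrolase of the methyl cycle, read 10.47 and 11.02 in S1_54, 11.94 and 11.80 in Joyau and 10.65 and 11.35 in Ae54. It was lower than in Joyau (-1.13, SE 0.34, adjusted p = 0.0225), as was its second probe set (-1.17, adjusted p = 0.0337), and S1_54 overlapped Ae54. These calls were lost in 4 and 6 of 15 alternative settings.

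FBP, fructose-1,6-bisphosphatase, read 9.96 and 10.17 in S1_54, 9.99 and 10.07 in Joyau and 10.84 and 10.86 in Ae54. Neither difference passed (0.04, adjusted p = 0.951, and -0.79, adjusted p = 0.0528, limma). TUBA, an alpha tubulin, passed against Ae54 (-0.62, adjusted p = 0.0484), a call lost in 8 of 15 alternative settings, and not against Joyau (-0.18, adjusted p = 0.601). XTH, a cell wall xyloglucan endotransglucosylase/hydrolase, and TBP1, the TATA-binding protein, passed against neither parent. Of the 9 tested probe sets with a symbol other than a LOC identifier, 5 passed as lower in S1_54 than in Joyau, beside 22.6% of all tested probe sets, and 4 as lower than in Ae54, beside 29.2%, and the rest did not pass. The medians of all 9 were -1.13 and -0.62, beside -0.15 and -0.12 over all tested probe sets. Only 4 of 16 gene lists by function had a tested member, since the probe table gives symbols without descriptions: petC for photosynthesis, FBP and GAPN for carbon metabolism, CAT1 for oxidative stress, and SAHH for the methyl cycle. COR410, a dehydrin, and the thionin genes THI1.1, THI1.2 and TTHV did not reach 5 on 2 arrays and were not tested.

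Among the LOC genes below both parents, LOC542794 read 5.45 and 6.29 in S1_54, 6.49 and 6.71 in S0_54, 8.40 and 8.07 in Joyau and 8.74 and 8.55 in Ae54. Its difference was -2.37 from Joyau (SE 0.30, adjusted p = 0.000152, limma) and -2.78 from Ae54 (SE 0.30, adjusted p = 2.67e-05). LOC543106 read 8.49 and 8.93 in S1_54, 9.57 and 9.65 in S0_54, 10.47 and 10.33 in Joyau and 10.10 and 9.97 in Ae54. LOC780596 read 7.00 and 6.88 in S1_54, 8.06 and 7.82 in S0_54, 8.57 and 8.24 in Joyau and 8.28 and 7.95 in Ae54. In all 3 genes the S0_54 mean lay between S1_54 and the parents. LOC543422 (probe set Ta.62.1.S1_x_at) had the largest fall of the group and split S0_54 arrays: it read 4.49 and 5.82 in S1_54, 8.63 and 5.07 in S0_54, 7.96 and 7.89 in Joyau and 8.48 and 8.80 in Ae54. Its call against Joyau was lost in 5 of 15 alternative settings and that against Ae54 in 2. On the gene's probe sets Ta.278.1.S1_x_at and Ta.278.1.S1_at, S1_54 did not pass against Joyau (0.13 and 0.07) and passed below Ae54 (-3.81 and -3.38). Joyau was low there, with means of 3.56 and 2.33. The mean of S0_54 was below both parents in all 12 named genes of this group, which were chosen on the same parental arrays.

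**Figure D5:**
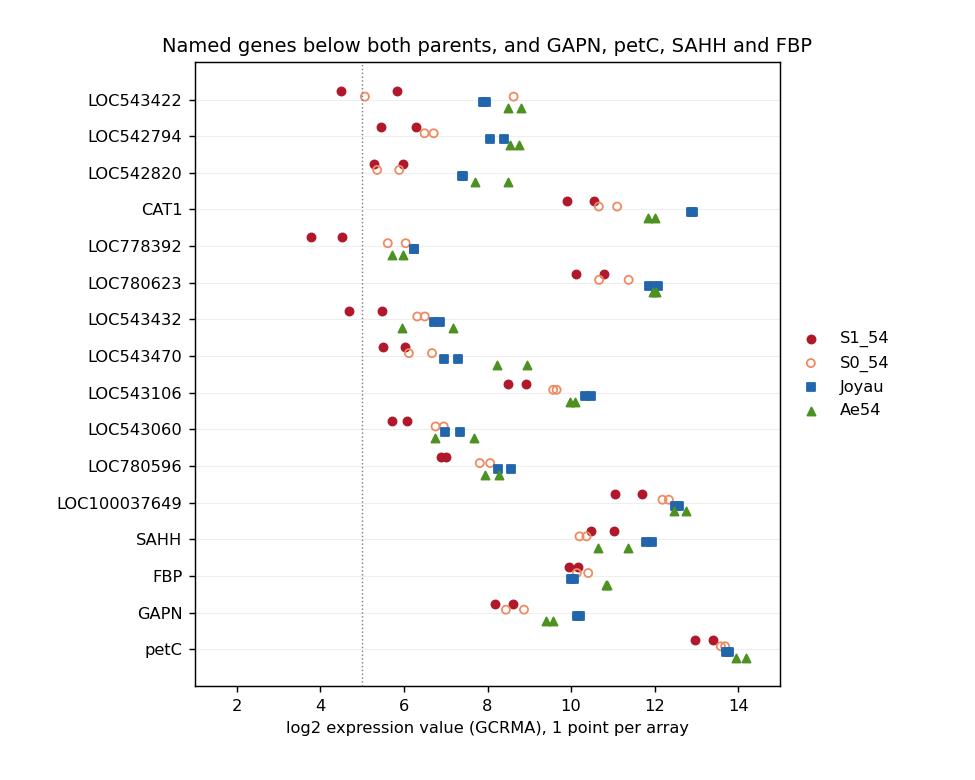
Log2 values on each array (horizontal axis) of the 12 named genes with S1_54 below both parents, then of SAHH, FBP, GAPN and petC, with the same symbols as for the genes above both parents. In CAT1 the S1_54 points (9.91 and 10.54) stand left of all parental points, and in FBP they overlap Joyau.

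Probe sets without a gene symbol also lay far outside the parental range. TaAffx.54307.1.S1_x_at read 9.68 and 9.84 in S1_54, 7.64 and 7.55 in S0_54, 3.08 and 3.04 in Joyau and 1.91 and 1.79 in Ae54. Ta.613.1.S1_at read 11.85 and 12.08 in S1_54, 10.57 and 10.95 in S0_54, 6.12 and 5.53 in Joyau and 3.79 and 4.22 in Ae54. In both, S0_54 was already above the parents and S1_54 passed above S0_54. TaAffx.28555.1.S1_s_at read 6.24 and 6.44 in S1_54, 7.11 and 7.49 in S0_54, 12.61 and 12.78 in Joyau and 9.58 and 9.43 in Ae54. It was the probe set with the largest fall against Joyau among the 5 listed below both parents (-6.36, SE 0.28, adjusted p = 7.72e-08, limma).

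Different probe sets of one gene did not always read the same parent. Of 146 genes with several tested probe sets, 2 had calls in opposite directions against Joyau and 15 against Ae54. For LOC606328, Ta.6572.2.S1_at read 9.00 and 10.25 in S1_54, 3.28 and 3.01 in Joyau and 11.54 and 11.33 in Ae54. The probe set Ta.6572.1.S1_at of the same gene read 9.71 and 10.75 in S1_54, 10.83 and 10.50 in Joyau and 3.09 and 2.81 in Ae54. S1_54 was thus high on both of these probe sets, while Ae54 was high only on the first and Joyau only on the second. On a further probe set of the gene, Ta.6572.1.S1_a_at, both parents were high, with means of 10.29 in Joyau and 11.62 in Ae54. There S1_54 averaged 10.46 and passed against neither. LOC778392 passed below both parents on Ta.351.1.S1_at (-2.10 and -1.70) and between them on Ta.351.2.S1_x_at (-2.73 against Joyau and 3.40 against Ae54). LOC606363 passed above both parents on TaAffx.128418.102.S1_at (2.35 and 2.53), while Ta.23917.3.S1_x_at read 10.99 and 11.49 in S1_54, 12.35 and 12.17 in Joyau and 4.35 and 4.20 in Ae54. Whether these probe sets read different homoeologues was not tested.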

How the data were processed

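RNA of whole plants was measured on 18 Affymetrix wheat arrays. The deposited values are on the log2 scale and were made by the authors with GCRMA, per the submitters' processing notes, with 1 value for each probe set on each array. Its version is not given in the sources used here. Values of unexpressed probe sets pile up near a floor in GCRMA, which understates differences from a group near it. The table holds 61290 probe sets. The 111 control probe sets were left out, and the test took the 18189 probe sets that reached 5 on at least 2 arrays.

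The 7 plant groups (14 arrays, RNA mixes left out) each had a mean in a linear model fitted with limma 3.58.1 in R 4.3.3, with moderated variances (7 residual and 3.44 prior degrees of freedom), two-sided, and Benjamini-Hochberg adjustment within each comparison. With 2 arrays a group, the spread is pooled over groups. A probe set was above or below both parents where both comparisons passed in the same direction. The pipeline was tested on simulated data.

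Of all probe sets, 1273 have 1 gene symbol in the probe table and none has several, and 716 of these were tested. LOC identifiers have no annotation here, so no function was given to them. Named genes were the 12 largest rises and falls per comparison and up to 12 above and below both parents, which passed with a log2 difference of 1 or more, did not overlap between the groups' arrays and carried 1 symbol. Also named, whether or not they passed, were up to 6 genes per parental class and position and the members of the gene lists. The 5 largest probe sets above and below both parents were named whether or not they carried a symbol. XTH, TUBA and TBP1, which match no list by their symbols, were named after their values were seen. Probe sets ending in _s_at or _x_at may read several related transcripts. The arrays, gene lists and tests were chosen with earlier results of these data known.

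Replicate numbers were checked for pairing. Correlations of the replicate differences between groups that share numbers were -0.0564 to 0.228. The highest, 0.228, was between Joyau and Ae54, the parents compared here. The correlations were not above 0.1 in every pair, so the numbers were taken as names only. S1_54 shares no number with a parent.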

Additional observations from a re-analysis of the deposited data

Results flagged for a closer look

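Of 42 named probe sets outside the parental range, 11 also passed against S0_54, the generation before selfing (limma, Benjamini-Hochberg adjusted over all tested probe sets), beside 9.14% of all tested probe sets. The 42 were chosen on the same S1_54 arrays, so nothing is read from this count. The S1_54 and S0_54 arrays did not overlap in any of the 11. Probe sets that passed against Joyau rarely overlapped it: 7000 of 7007 did not. Overlap with S0_54 was not counted over all probe sets that passed against it. Among probe sets above both parents, S1_54 minus S0_54 was 2.27 for LOC542781 (SE 0.31, adjusted p = 0.00435), 3.21 for LOC606363 (SE 0.63, adjusted p = 0.014), and 1.28 and 1.43 for the probe sets of LOC778400 (adjusted p = 0.0119 and 0.0182). It was 2.16 for TaAffx.54307.1.S1_x_at (adjusted p = 0.00368) and 1.202 for Ta.613.1.S1_at (adjusted p = 0.0332). LOC606312, also above both parents, went the other way: it was -1.08 (SE 0.24, adjusted p = 0.0218), so that S1_54 lay nearer to the parents than S0_54. Among probe sets below both parents, S1_54 minus S0_54 was -1.68 for LOC778392 (SE 0.41, adjusted p = 0.0307), -1.001 for LOC780596 (SE 0.26, adjusted p = 0.0417), -1.81 for TaAffx.52745.1.S1_s_at (adjusted p = 0.00458) and -1.37 for Ta.7524.2.A1_x_at (adjusted p = 0.00968).

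Some control probe sets outside the comparisons were higher in S1_54 than in its parents. The 18S rRNA control had a mean log2 level of 8.23 on the S1_54 arrays, against 6.79 on the Joyau arrays and 6.62 on the Ae54 arrays. The poly-A spikes averaged 6.86 on the S1_54 arrays, 5.28 on the Joyau arrays and 5.11 on the Ae54 arrays. Other controls did not all share this. The 5-prime ubiquitin probe set averaged 12.69 in S1_54, below Joyau at 13.28 and Ae54 at 13.03. The 3-prime ubiquitin set averaged 10.18, above Joyau at 9.91 and below Ae54 at 10.96. The middle ubiquitin set averaged 10.85, below Joyau at 11.42 and close to Ae54 at 10.86. The hybridisation controls read 10.79 and 10.52 in S1_54 and overlapped Ae54 (10.62 and 10.54). They were higher than in Joyau (9.81 and 10.32) and in S0_54 (9.76 and 9.54), without overlap. The part of the controls in the results was not tested.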

How the results depend on the processing

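A filter at 7 in place of 5 gave 4352 probe sets passing between S1_54 and Joyau, 5853 between S1_54 and Ae54, 5921 between the parents, and 555 above both parents, from fewer probe sets tested. Asking also for a log2 difference of 1 left 646 below both parents. Leaving out 1 array at a time gave 4672 to 6994 probe sets against Joyau, 7570 to 9646 against Ae54, 8715 to 10068 between the parents, 527 to 837 above both and 616 to 1134 below both. The Ae54 weight was 0.356 and 0.370 at parental differences of 2 and 3 or more, 0.380 with no filter, 0.334 with the filter at 7, 0.313 with quantile normalisation or centring, and 0.305 to 0.416 with 1 array left out. Between the parents the balance turned with quantile normalisation (5459 higher and 5048 lower in Ae54) and with centring (5431 and 5082). With the replicate block, Ae54 minus Joyau had 9183 probe sets passing, against 9242 in the same 4 groups without the number. No such fit was possible for S1_54, which shares no replicate number with a parent. Of 156 calls of named probe sets, 115 were kept in every alternative in which they were tested. Directions turned only for differences that had not passed: FBP against Joyau (-0.0687 without S1_54 replicate 7 and -0.0017 without Joyau replicate 1, range to 0.140), XTH against Ae54 (-0.24 without S1_54 replicate 7, range to 1.06) and the SAHH probe sets against Ae54 (0.02 and 0.08 without S1_54 replicate 5, 0.0987 and 0.21 without Ae54 replicate 2, ranges from -0.61 and -0.70). The cause was not tested.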

Other observations

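The S1_54 replicates differed from each other in some genes. LOC543318 read 5.71 and 10.15 on the S1_54 arrays (replicates 5 and 7), 9.74 and 10.52 on the S0_54 arrays, 6.44 and 6.08 in Joyau and 7.60 and 9.47 in Ae54. LOC606352 differed the other way, with 7.73 and 4.95 in S1_54 and 6.93 and 5.00 in S0_54. LOC543234 read 3.48 and 6.17 in S1_54 and 2.50 and 7.41 in S0_54, against 2.47 and 2.57 in Joyau and 2.52 and 2.62 in Ae54. These genes were chosen after their values were seen, and 1219 tested probe sets (6.7%) differed by over 1 between the S1_54 arrays. In the other plant groups this share was 3.01% (S0_54) to 12.8% (Ae36, of Ae. tauschii accession 36), so S1_54 lay within their range.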
